A study of Mus musculus with 28 samples.

Results

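The genes here are 10 members of the Hippo pathway, chosen by name and by no threshold on these data, though with earlier results known. They are 6 effectors, namely the coactivator genes Yap1 and Wwtr1 (which encodes Taz) and the transcription factor genes Tead1, Tead2, Tead3 and Tead4, and 4 genes counted as targets, namely Ankrd1, Amotl2, Lats2 and Vgll4. All 10 matched the RefSeq annotation of mouse build GRCm38.p6, among 21887 protein-coding genes annotated on the autosomes and sex chromosomes. The measurement is chromatin immunoprecipitation sequencing (ChIP-seq) of H3K27ac, the acetylated histone H3 lysine that marks active promoters and enhancers. Wild-type (WT) mouse embryos at E10.5, where E stands for the embryonic day, gave the cells, which were cranial neural crest isolated by fluorescence-activated sorting, with 1 library from each of 4 dissected populations that the labels call FNP, Mx, Md and PA2. The authors merged the reads of those 4 libraries and called 1 list of 125826 acetylated intervals, of which 312 lay over a member or within 100 kb of it, and none was shared by 2 members. The labels do not say which marker the cells were sorted on. The list holds no value per library, so no value below has a replicate error, the sequencing depth is unknown, and a mark in fewer cells cannot be told apart from a weaker mark in all of them.

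In the Hippo pathway a cascade of kinases ends in Lats1 and Lats2, which phosphorylate Yap and Taz and keep them out of the nucleus. Unphosphorylated Yap and Taz enter the nucleus, bind Tead proteins on DNA and switch on genes of growth, the cytoskeleton and matrix. Several of those target genes feed back on the pathway, and in the mouse neural crest Yap and Taz are needed for normal development of the face. Amotl2 encodes an angiomotin that binds Yap, Lats2 a kinase that inhibits it, and Vgll4 a cofactor that competes with Yap for Tead, so that these targets are also parts of the pathway. Ankrd1 encodes a muscle ankyrin repeat protein and is a widely used readout of Yap activity.

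RefSeq promoter sequences (GRCm38.p6), which run from 250 bases before to 50 bases after a transcript start, were used for the 8 members other than Tead1 and Tead4. A selection is shown because 7 of the 8 contained the 6-base core of the Tead binding motif, GGAATG, or its reverse complement CATTCC, at the outermost listed start, whereas 13.5% of the 17492 protein-coding genes with a listed start did. In the following 5 promoters, written 5′ to 3′ along the gene, capitals mark every match on either strand.

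Yap1, chr9:8004547-8004846, minus strand: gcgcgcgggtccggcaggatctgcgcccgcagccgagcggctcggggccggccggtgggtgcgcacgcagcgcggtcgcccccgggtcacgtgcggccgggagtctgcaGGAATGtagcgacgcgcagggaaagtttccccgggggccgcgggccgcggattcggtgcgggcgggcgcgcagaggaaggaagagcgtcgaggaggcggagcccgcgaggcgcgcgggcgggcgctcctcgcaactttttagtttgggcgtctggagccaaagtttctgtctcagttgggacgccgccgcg
Tead3, second listed start, chr17:28350551-28350850, minus strand: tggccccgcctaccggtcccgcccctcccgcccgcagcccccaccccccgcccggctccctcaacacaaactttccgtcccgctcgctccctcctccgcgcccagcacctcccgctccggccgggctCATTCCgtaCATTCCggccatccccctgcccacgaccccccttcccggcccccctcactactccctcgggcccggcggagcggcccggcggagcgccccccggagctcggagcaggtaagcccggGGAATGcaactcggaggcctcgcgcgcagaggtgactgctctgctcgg
Amotl2, chr9:102717554-102717853, plus strand: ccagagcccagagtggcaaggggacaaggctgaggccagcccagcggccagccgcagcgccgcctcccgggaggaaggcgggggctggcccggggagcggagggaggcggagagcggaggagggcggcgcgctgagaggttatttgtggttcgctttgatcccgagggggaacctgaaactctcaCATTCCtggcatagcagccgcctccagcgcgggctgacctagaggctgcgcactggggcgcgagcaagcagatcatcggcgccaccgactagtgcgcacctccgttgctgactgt
Lats2, chr14:57746074-57746373, minus strand: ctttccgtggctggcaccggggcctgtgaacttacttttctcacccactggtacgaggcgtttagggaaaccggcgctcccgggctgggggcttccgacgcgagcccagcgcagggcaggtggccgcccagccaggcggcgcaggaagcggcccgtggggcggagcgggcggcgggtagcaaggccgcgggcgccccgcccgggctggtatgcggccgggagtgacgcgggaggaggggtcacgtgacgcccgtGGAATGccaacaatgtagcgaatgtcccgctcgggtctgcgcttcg
Ankrd1, chr19:36119795-36120094, minus strand: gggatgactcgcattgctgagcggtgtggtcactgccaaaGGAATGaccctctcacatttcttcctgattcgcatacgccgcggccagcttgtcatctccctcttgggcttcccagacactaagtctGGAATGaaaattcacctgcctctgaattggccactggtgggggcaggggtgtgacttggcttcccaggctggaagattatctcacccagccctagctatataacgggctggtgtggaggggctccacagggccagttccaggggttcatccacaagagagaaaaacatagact

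Positions are counted along the gene, with 1 at the first transcribed base and -1 just before it, and each is that of the first base of the match. Ankrd1 held 2 matches, at -210 and -123, and 2 or more were found in 1.14% of listed promoters. Yap1 held 1 match at -141 and Wwtr1 1 at -136. At the outermost start of Tead3 there was 1 match at -182, and its second start added 3 more, at -123, -114 and 3. Amotl2 had a match at -65 and Vgll4 at -82, and the match in Lats2 began at 5. Tead2 was the member with a listed start and no match in this window. The same letters in reversed order, GTAAGG or its reverse complement CCTTAC, were in 0 of the 8 members' outermost promoters and in 8.02% of all listed promoters. A match describes the letters only and does not show that a Tead protein was bound.

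An interval lay within 1 kb of a start of 9 of the 10 members, where for Tead1 and Tead4, which have no listed start, either annotated gene end was used. By the same rule 65.5% of all protein-coding genes were marked. With either gene end in place of the start for every gene, 9 of 10 members were again marked, against 65% of genes. All 6 effectors were marked, against 3 of the 4 targets, and the exception was Ankrd1. The score of an interval is the authors' deposited value from the peak caller. More merged reads raise it, so scores and their medians are compared only within this list, and a ratio of scores is not a ratio of acetylation. Tead2 had the highest score among the members, 8492, above 93.9% of the 14341 genes marked at a start. Lats2 followed with 8349, Amotl2 with 6595, Tead1 with 6131 at its lower-coordinate end and Yap1 with 5721. Wwtr1 had 3712 and Tead3 2669, near the median of 2612 of all marked genes. Vgll4 with 931 and Tead4 with 694 lay below most marked genes, at percentiles 26.9 and 22.9. Thus both effectors and targets ran across most of the range, and with no replicates the order of members with similar scores is only that of this list.

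The arrangement of intervals around the start differed among members. Yap1 and Lats2 each had their outermost start inside 1 broad interval, of 2185 bp at Yap1 (chromosome 9, 8003038 to 8005222) and 1345 bp at Lats2 (chromosome 14, 57745162 to 57746506). In Wwtr1, Tead2, Tead3 and Vgll4 the outermost start lay in a short gap between 2 intervals, of 93, 148, 173 and 154 bp. The 2 inner starts listed for Tead3 lay inside the interval on the gene side. This made 4 of 8 members with a gap of at most 300 bp, against 11.7% of genes with a listed start, while 3 of 8 had the start inside an interval, against 39.3%. These shares also count unmarked genes, whereas of the 8 members only Ankrd1 was unmarked. Of the 17492 genes 11458 were marked, among which 6874 had the start inside an interval and 2051 in such a gap. The lower-coordinate end of Tead1 also lay in such a gap, of 184 bp. The 3 members with the start inside an interval include Amotl2. Its start base, 102717804, lay at the edge of an interval that begins at 102717803. The flanking intervals at Wwtr1 had nearly equal scores of 3606 before and 3712 after the start, and those at Tead3, which also lie within 1 kb of an end of its neighbour Tulp1, had 2400 and 2669. At Tead2 the interval after the start scored 8492 and the one before it 212, at Vgll4 931 after and 180 before, and at Amotl2 6595 after and 1457 before. At these 3 promoters the higher score was thus listed after the outermost listed start. The lower-scored intervals before it at Amotl2 and Vgll4 also lay within the annotated gene, which extends beyond that start. The motif matches of Yap1, Wwtr1, Tead3 and Lats2 lay inside an interval. Those of Amotl2 and Vgll4 lay between the 2 intervals near the start, 59 and 62 bp from the nearest interval.

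**Figure D1:**
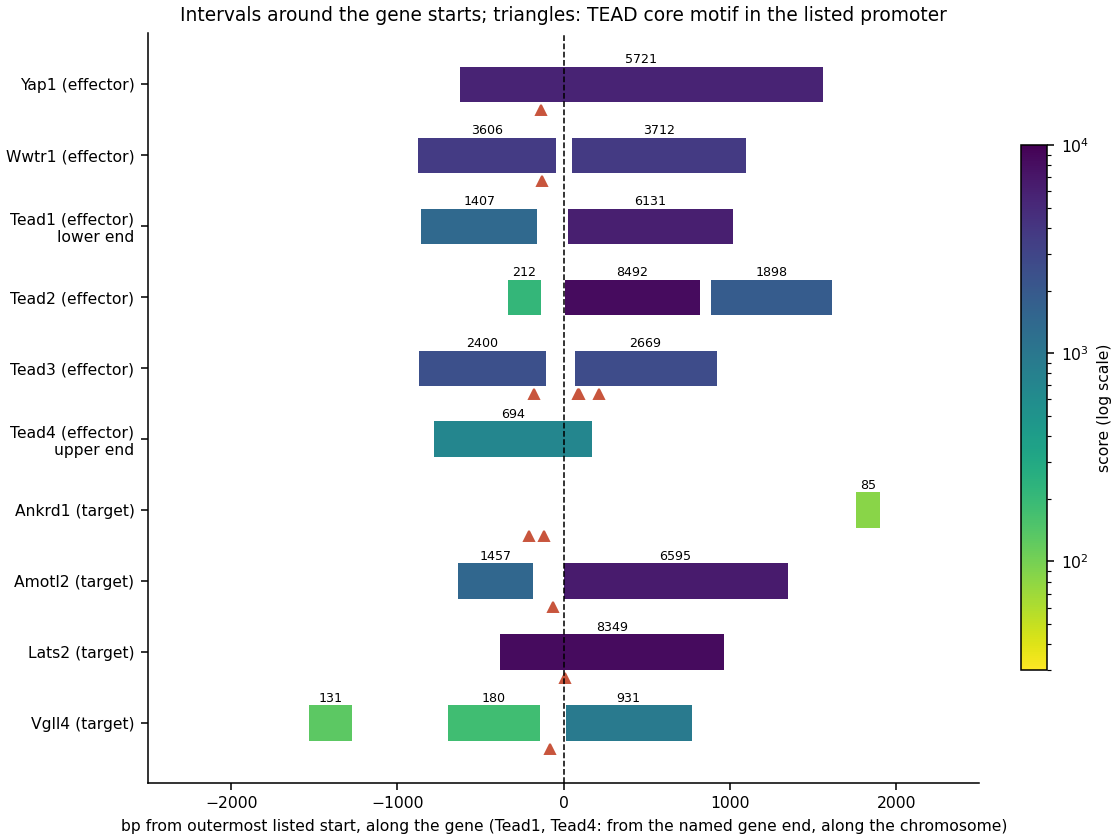
Intervals within 2.5 kb of the outermost listed start (dashed line), drawn along the gene for 8 members and along the chromosome from 1 gene end for Tead1 and Tead4, with effectors above targets. Bars are intervals coloured and labelled by score, and triangles are matches to the Tead core motif in the listed promoters. Ankrd1 has 2 triangles and no bar within 1 kb of its start, and its only bar, labelled 85, lies further inside the gene.

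Ankrd1 had no interval within 1 kb of its start. The nearest one to its motif matches lay 1876 bp away inside the gene (chromosome 19, 36117943 to 36118086), with a width of 144 bp and a score of 85, below the list's median of 111. With 2.5 kb on either side that interval counted, and all 10 members were marked, against 69% of all protein-coding genes. Ankrd1 was also the member with the fewest CpG dinucleotides in its promoter. Its ratio of observed to expected CpG was 0.312, against 0.534 in Tead2, the next lowest, and 1.23 in Yap1, the highest. Among all listed promoters, 39.8% of those with a ratio between 0.2 and 0.4 were marked, against 97.7% of those over 0.8. Marked promoters in those classes had median scores of 485 and 3981. Tead2 stood at 8492 in the class from 0.4 to 0.6, whose marked promoters had a median of 1506. Vgll4 stood at 931 with a ratio of 0.993, where the median was 3981. The part of CpG content in the members' scores was not tested.

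**Figure D2:**
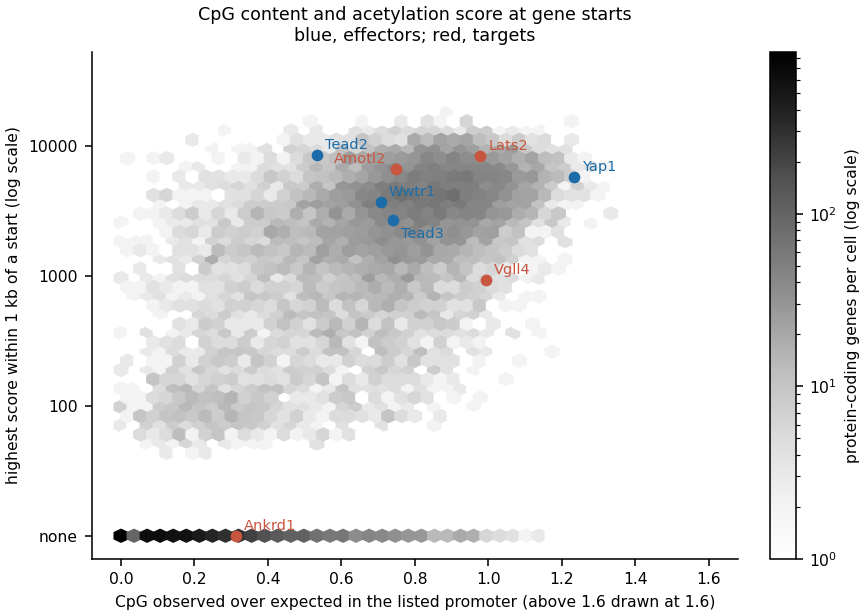
Highest interval score within 1 kb of a start (vertical, log scale, with genes without an interval on the row marked none) against the ratio of observed to expected CpG in the listed promoter (horizontal), for 17492 protein-coding genes in grey cells, darker where there are more, with 4 effectors in blue and 4 targets in red. Ankrd1 lies on the row without an interval at a ratio of 0.312, and Vgll4 lies below most promoters with a ratio near 1.

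Every member had at least 1 interval over the gene itself, as did 73.1% of protein-coding genes, and at least 1 within 100 kb, as did 90.6%. Counts over the gene and 100 kb on either side were 64 for Tead1, 37 for Tead4, 35 for Tead3, 25 for Yap1, 24 for Wwtr1 and 24 for Tead2 among the effectors. Among the targets they were 38 for Amotl2, 38 for Vgll4, 17 for Lats2 and 10 for Ankrd1. The median over all protein-coding genes was 15 (quartiles 7 and 23). Long genes have longer windows, and the members ranged from 7.88 kb (Ankrd1) to 227.4 kb (Tead1), so the density per 100 kb of window is the fairer measure. Amotl2 was densest with 17.57 intervals per 100 kb, above 98.8% of genes, followed by Tead3 with 15.97, Tead1 with 14.97 and Tead4 with 13.52. These 4 were in the top 10% of genes by density. Vgll4 had 12.28, Tead2 11.03, Yap1 9.17 and Wwtr1 7.49 intervals per 100 kb. Lats2 with 6.63 lay near the median of 6.38, and Ankrd1 with 4.81 was the only member below it. Thus 9 of 10 members lay above the median, as 50% of genes do by definition. Just inside the 100 kb limit, between 90 and 100 kb from the genes, lay 23 intervals in all, and just outside it, between 100 and 110 kb, 22.

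The effector genes lie at chr9:7931999-8004638 (Yap1), chr3:57455644-57575910 (Wwtr1), chr7:112679356-112906784 (Tead1), chr7:45215792-45233468 (Tead2), chr17:28331671-28350805 (Tead3) and chr6:128227143-128300813 (Tead4). The target genes lie at chr19:36111965-36119844 (Ankrd1), chr9:102717091-102733418 (Amotl2), chr14:57689662-57746212 (Lats2) and chr6:114860621-114970007 (Vgll4). The acetylated length in the window was 22.27 kb at Tead1, 15.9 kb at Tead3, 14.11 kb at Tead4, 13.35 kb at Yap1, 12.36 kb at Wwtr1 and 11.13 kb at Tead2. Among the targets it was 16.49 kb at Vgll4, 16.29 kb at Amotl2, 9.46 kb at Lats2 and 4.34 kb at Ankrd1. As a share of the window, Amotl2 with 7.53% and Tead3 with 7.26% were highest and Ankrd1 with 2.09% lowest. The genes themselves held 36 intervals at Tead1, 16 at Wwtr1, 11 at Tead4, 8 at Yap1, 4 at Tead3 and 2 at Tead2, and 18 at Vgll4, 7 at Lats2, 5 at Amotl2 and 1 at Ankrd1. Per length of the gene, effectors had a median of 14.12 and targets 14.57 intervals per 100 kb, against 6.15 for all protein-coding genes. In short genes this measure rests on few intervals, such as the 1 at Ankrd1 and 2 at Tead2. Over all protein-coding genes the median number over the gene was 1.

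Effectors and targets overlapped in the number, density and covered share of intervals and in the score at the start. The median density was 12.27 intervals per 100 kb in effectors (range 7.49 to 15.97) and 9.45 in targets (4.81 to 17.57), so that the effectors' whole range lay within that of the targets. The median count was 30 in effectors and 27.5 in targets, and the median of the highest score at the start was 4716 in effectors and 3763 in targets. When only intervals that cover a start base counted, 5 of 10 members were marked, against 40.6% of all genes, and the order of the median scores turned, to 347 in effectors and 3298 in targets. Intervals covered a median of 5.13% of the window in effectors and 4.51% in targets, against 2.77% for all protein-coding genes. With 6 and 4 genes these medians rest on single members. Without Ankrd1, or without Lats2, the median count of the targets was 38, above the 30 of the effectors, and with Ankrd1 and Amotl2 as the only targets it was 24. Genes are not replicates, and no test was made. Among the effectors the 4 Tead genes had a median of 14.25 intervals per 100 kb, and both coactivator genes lay below each of them in this density. That order did not hold for distal intervals, where Tead2 (3.68) lay below both coactivator genes, or over the gene itself, where Tead2 had 11.31 and Wwtr1 13.3 intervals per 100 kb.

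**Figure D3:**
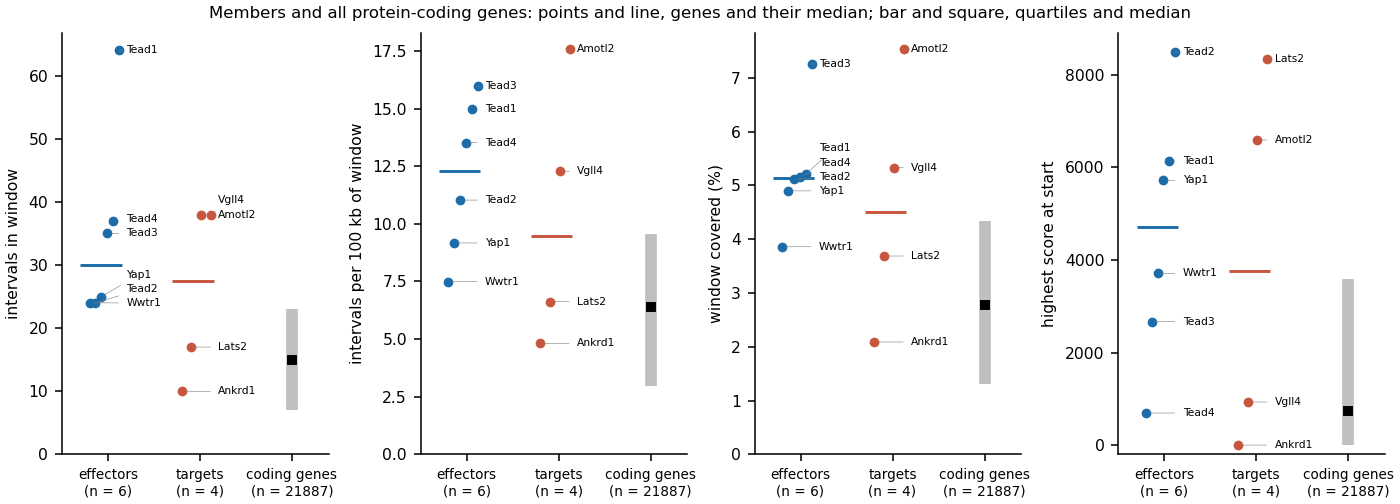
Number of intervals, intervals per 100 kb, percent of the window covered and highest score at the start (4 panels) for the 6 effectors in blue and the 4 targets in red, with lines at their medians, and for all 21887 protein-coding genes as the median (square) and quartiles (grey bar). The 2 groups overlap in each panel, and Ankrd1 is the lowest member by count, by density, by covered share and by start score.

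Windows also hold the promoters of neighbouring genes, and these differed between members. The window of Tead2 held 14 other protein-coding genes, and 16 of its 24 intervals lay within 1 kb of a coding gene end. Its highest score, 10338, belonged to an interval at starts of Aldh16a1 and Pih1d1. The highest scores in the windows of Wwtr1, Tead3, Tead4, Ankrd1, Amotl2 and Vgll4 were likewise at ends of other genes, namely Commd2 (6022), Fance (5999), Foxm1 and Rhno1 (6302), Rpp30 (3056), Anapc13 and Cep63 (8070) and Tamm41 (2560). In Yap1, Tead1 and Lats2 the member's own start or end carried the highest score. When intervals within 1 kb of any coding gene end were left out, Amotl2 had 15.72 distal intervals per 100 kb and Tead1 14.04, above 99.6% and 99.1% of genes. Tead3 kept 11.86, Vgll4 10.99 and Tead4 10.23, at percentiles 97.3, 96.0 and 94.5. Yap1 had 6.97, Wwtr1 6.25 and Lats2 4.68, whereas Tead2 had 3.68 and Ankrd1 3.85, near the median of 3.77. On this measure effectors had a median of 8.60 and targets 7.83. Distal intervals of a window include those inside neighbouring genes, such as Ppard at Tead3, Atg7 at Vgll4 and Tspan9 at Tead4. Of the distal intervals, 35 of 60 at Tead1, 16 of 34 at Vgll4 and 9 of 28 at Tead4 lay over the member itself. At Tead3 3 of 26 did, and at Amotl2 3 of 34.

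Distal intervals with high scores were placed in different parts of each locus. A score of 500 was reached by 7.15% of all distal intervals. Vgll4 had 6 such intervals, all inside the gene, in 3 adjoining pairs that lay 47.13 and 48.25 kb, 85.55 and 86.43 kb, and 93.46 and 94.5 kb after the start. Of all protein-coding genes, 29 had 6 or more inside the gene. The highest of them, with a score of 1778 and a width of 1591 bp (chromosome 6, 114920161 to 114921751), outscored the interval at the gene's own start (931). Wwtr1 had 4 inside the gene, led by one 87.8 kb after the start with a score of 1115 (chromosome 3, 57487607 to 57488537), and 123 protein-coding genes had 4 or more. Tead1 had 3 inside the gene, of which the highest scored 929 (chromosome 7, 112806900 to 112807575), and 278 protein-coding genes had 3 or more. Vgll4, Wwtr1 and Tead1 are all among the longest 10% of genes, and these counts were not set against genes of like length. The 60 distal intervals of Tead1 had a median score of 103.5. The median of all distal intervals was 99, so Tead1 stood out by the number of its distal intervals and not by their scores.

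At Amotl2, Tead4, Lats2 and Yap1 the highest distal score lay outside the gene. Amotl2 had 6 with a score of at least 500, and the highest, 3396, lay 73.1 kb before its start (chromosome 9, 102644098 to 102645276). Tead4 had 2, with scores of 1194 and 1184, at 26.78 and 26.04 kb below its lower-coordinate end (chromosome 6, 128200137 to 128200584 and 128200839 to 128201362). The second of these lay within 1 kb of an end of Gm4691, which is not a protein-coding gene. Lats2 had an interval with a score of 6603 beyond its 3′ end, inside the gene Xpo4 (chromosome 14, 57664182 to 57665656). That interval was 1475 bp wide. Distal is defined by gene ends alone, so a promoter at a start inside a gene counts as distal. Whether the interval inside Xpo4 is such a promoter was not tested. The highest distal score of Yap1, 4696, lay 13.2 kb before its start (chromosome 9, 8017593 to 8017924) in an interval of only 332 bp. Of all intervals within 10% of that width, 0.473% reached its score. Duplicate reads were kept and no control is named for the peak calling, so whether piled-up duplicate reads raised this score was not tested. The next highest distal interval of Yap1 was inside the gene, 1811 bp wide, with a score of 532 (chromosome 9, 7960687 to 7962497). Tead2 had 1 distal interval over 500, with a score of 646, inside Cd37 beyond its 3′ end. Tead3 and Ankrd1 had none, and their highest were 454, inside the neighbour Ppard, and 205.

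**Figure D4:**
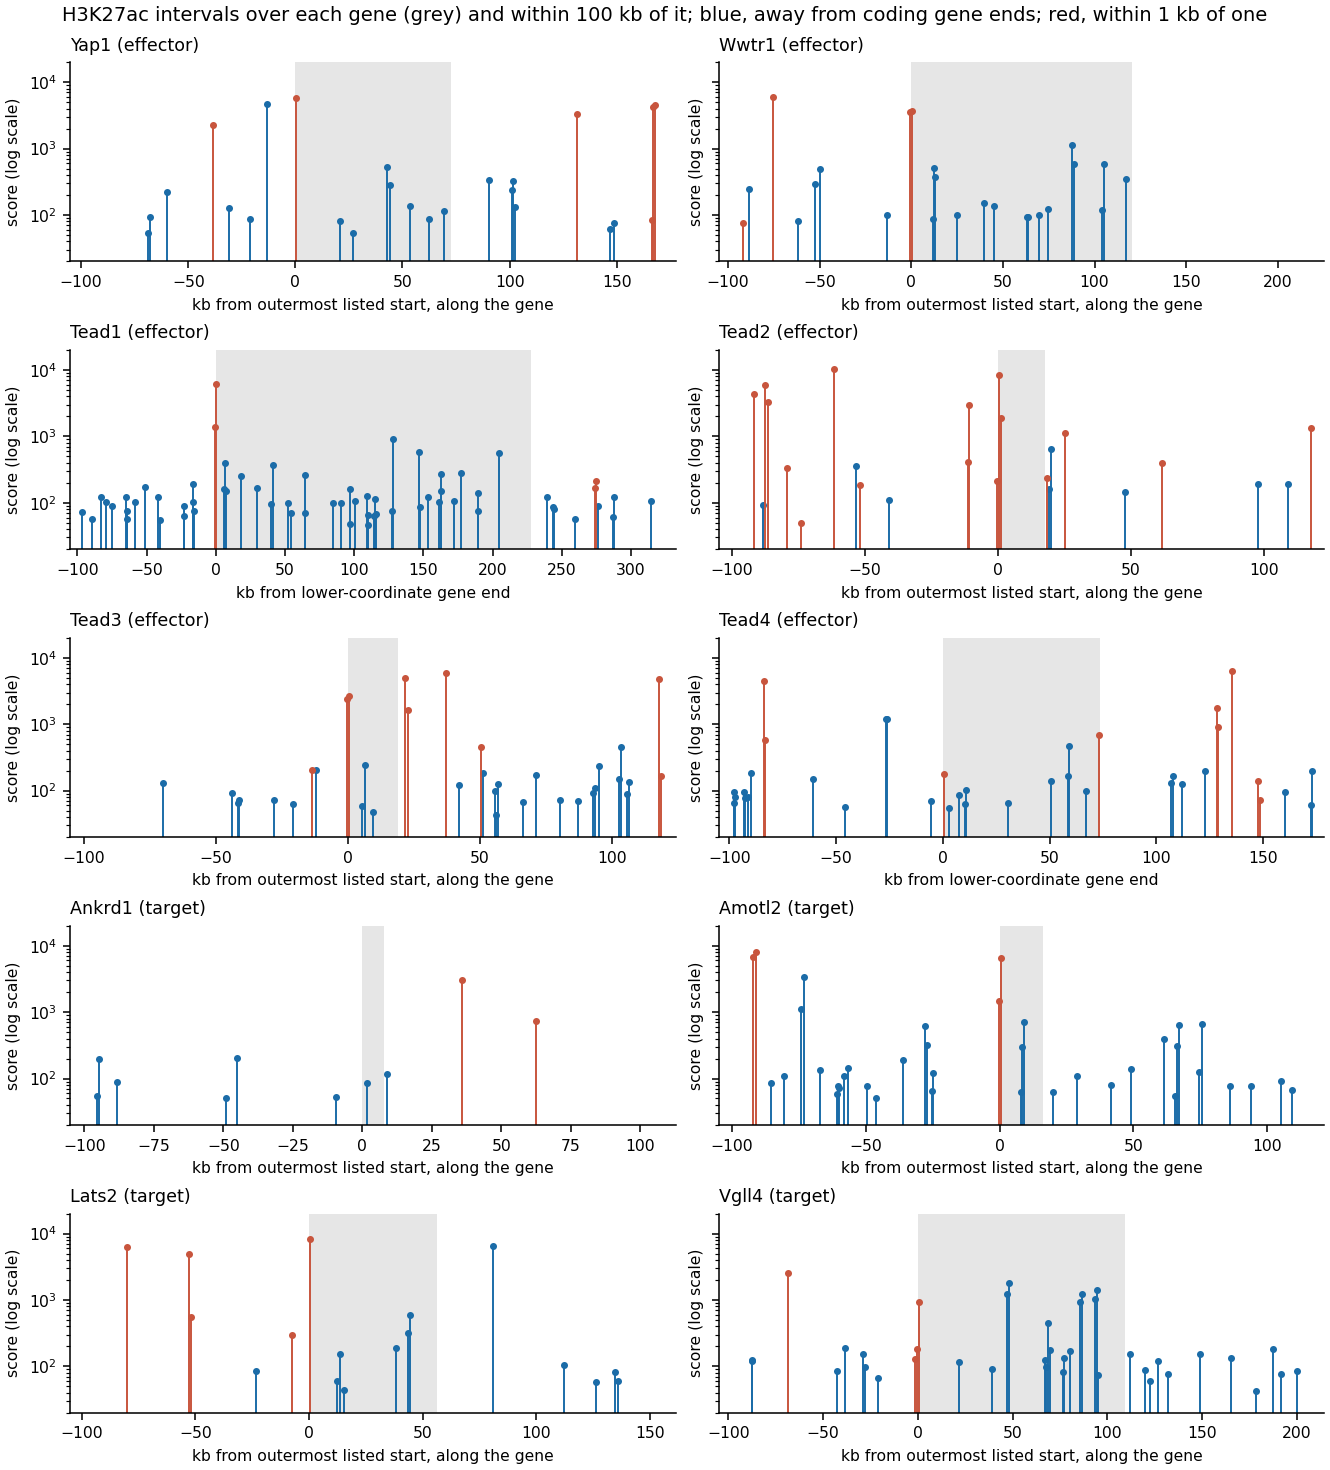
Interval scores (vertical, log scale) by distance in kb along each gene from its outermost listed start, or from the lower-coordinate end for Tead1 and Tead4 (horizontal), over the 10 genes (grey bands) and 100 kb on either side, with effectors first. Stems in red lie within 1 kb of a coding gene end and stems in blue do not; Tead1 has 64 stems, Ankrd1 has 10, and the tall blue stems of Vgll4 lie inside the gene.

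Most other genes of the pathway were marked too, namely 42 of 45 in the lists below (93.3%), against 65.5% of all protein-coding genes by the same rule. All 19 Hippo kinases and scaffolds other than Lats2 had an interval at a start. The highest scores were 11197 at Taok1, a kinase upstream of the cascade, and 9944 at Stk3 (Mst2), and the lowest were 1047 at Stk4 (Mst1) and 125 at Taok3. Lats1, the partner kinase of Lats2, had 9741. Among the other 8 Yap and Taz partners and antagonists, 5 were marked, and Amot, Vgll1 and Ywhaz were not. That share, 62.5%, is near the 65.5% of all genes. Ywhaz has no listed start, so only its gene ends were searched. Over the gene itself lay 6 intervals at Ywhaz, 4 at Amot and 0 at Vgll1. Ywhaq, a 14-3-3 gene, had 8182 and Amotl1 5256, whereas the Tead cofactor genes Vgll3 and Vgll2 had 628 and 224. Of 19 further target genes, mouse counterparts of a target signature described in human tumours, all were marked, whereas Ankrd1 was not. Scores among them were highest at Asap1 (8057) and Arhgef17 (6338) and lowest at Nt5e (399) and Myof (383). The matricellular genes Ccn2 (Ctgf) and Ccn1 (Cyr61), the most used Yap targets beside Ankrd1, had 3089 and 2006. Stk3, Asap1, Arhgef17 and Ccn2 also have no listed start, so their scores are the highest at either gene end.

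The median score at the start was 4716 for the effectors of the Hippo pathway, 3763 for the 4 targets and 1771 for the 19 further targets. For transcriptional effectors of the transforming growth factor, Hedgehog, Wnt and Notch pathways it was 4670, and for 15 direct targets of those pathways 658. All 17 of those effectors and all 15 of those targets were marked, against 65.5% of all protein-coding genes. The highest and lowest of the effectors were Smad5 (12938) and Maml1 (12905) and Smad9 (1324) and Maml2 (1005), and those of the targets were Smad7 (2872) and Axin2 (2083) and Nrarp (166) and Nkd1 (81). Smad7 has no listed start, and the medians include such genes, scored at either gene end. The median density was 9.69 intervals per 100 kb in those effectors and 11.78 in those targets. The Tead core motif was in the listed promoter of 5 of 15 Hippo kinases and scaffolds other than Lats2, 3 of 7 partners other than Amotl2 and Vgll4, and 4 of 12 further targets. It was in 1 of 15 effectors (Rbpj) and 1 of 8 targets (Id3) of the other pathways. Over the 33 other Hippo genes with a listed start the share was 33.3%, between the members' 87.5% and the 13.5% of all genes. Wtip had 4 matches and Wwc2 had 3. Ptpn14 stands among the partners and among the further targets and is counted in both. These shares are descriptions of small lists, and no test of them was made.

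**Figure D5:**
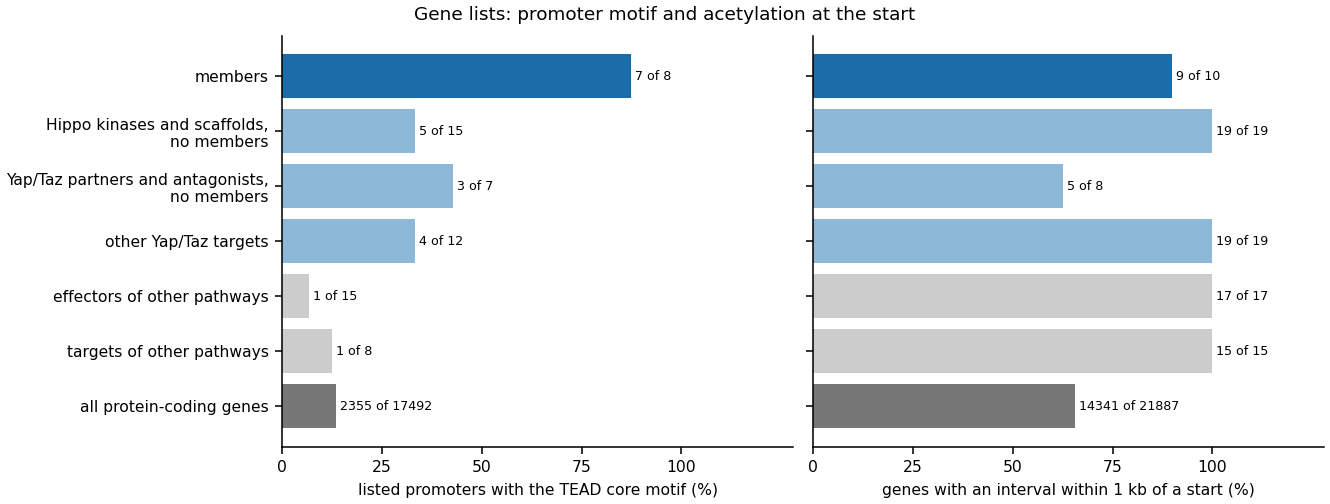
Percent of listed promoters with the Tead core motif (left) and percent of genes with an interval within 1 kb of a start (right), for the members, 3 lists of other Hippo genes, 2 lists of other pathways and all protein-coding genes, with counts beside each bar. The members have 7 of 8 promoters with the motif, and 9 of 10 genes with an interval.

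The label of the cells was set against marker genes. Of cranial neural crest mesenchyme markers, 9 of 10 were marked at a start, against 65.5% of all protein-coding genes by the same rule. Their scores ran from 746 at Dlx2 to 4697 at Prrx2, and Tfap2b was not marked. The median over the 10 was 1452, with Tfap2b as 0. It was 739 over all protein-coding genes, counted likewise, and 2612 over the marked ones. For genes with a listed start the count of marked genes leaves out the gene ends, and Tfap2b had an interval with a score of 660 at one. Of markers of other cells, 2 of 7 of blood, 5 of 6 of endothelium, 3 of 6 of surface epithelium and 5 of 6 of muscle and neurons were marked, with medians of 0, 249.5, 117 and 200.5 when unmarked genes count as 0. The highest of each were Spi1 (1492) and Klf1 (1480) of blood, Egfl7 (2251) of endothelium, Grhl2 (1367) of epithelium and Elavl4 (4646) of neurons. Thus Spi1, Klf1, Egfl7 and Elavl4 scored above the crest median. Not marked were Alas2, Gata1, Hba-a1, Hbb-bt and Ptprc of blood, Tie1 of endothelium, Cdh1, Esrp1 and Trp63 of epithelium and Myod1 of muscle. Spi1, Grhl2, Cdh1, Esrp1, Trp63 and Myod1 have no listed start, so only their gene ends were searched. Whether cells of other types contributed to the intervals at the members was not tested.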

How the data were processed

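H3K27ac ChIP-seq was made from cranial neural crest that was dissected and sorted from E10.5 wild-type embryos. Per the text deposited with the list, the authors merged the alignments of 4 libraries (1 each of FNP, Mx, Md and PA2) and called intervals once with MACS2 2.1.3.3, at a q-value of 0.001, without a model, with shift 0 and extension size 141 bp. Duplicate reads were kept, and the text names no control sample. The submitters' processing notes name bcl2fastq 2.17, Bowtie 1.1.1 and GRCm38. The deposited score per interval has no stated unit; by the caller's convention it is 10 times −log10 of the q-value. The other 24 of the 28 libraries were not analysed here.

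Gene ends, transcript starts and promoter sequences came from RefSeq (GRCm38.p6). Starts were listed for 17492 protein-coding genes. For the others either gene end served, an addition to the rule for genes with a listed start. An interval counted with an overlap of at least 1 bp. Distal intervals lay over 1 kb from every end of a protein-coding gene. Transcript starts inside a gene were not excluded. Percentiles are shares of genes with lower values, counting ties by the midrank. Overlap counts were checked on simulated intervals. All 10 members are named, and from each pathway list those with the highest and lowest scores at the start and those without an interval; marker genes were not under that rule, and other genes in the text were chosen after their values were seen. The members and gene lists were chosen with earlier results of these data known. Python 3.11.15, pandas 2.3.3 and numpy 2.4.6 were used.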

Additional observations from a re-analysis of the deposited data

How the results depend on the processing

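One merged list has no replicates, so the results were recomputed under other windows, score limits and definitions. No paired analysis was possible because the list holds no value per library. Effectors over targets, as the log2 ratio of medians, was 0.13 for the number of intervals, 0.38 for density, 0.09 for covered length and 0.33 for the start score. The direction turned when density was taken over the gene body only (-0.05, medians 14.12 and 14.57) and when the interval had to cover the start base (-3.25, medians 347 and 3298), which leaves 5 members marked, against 40.6% of all genes. Leaving out single members, an alternative added after the data were seen, gave ranges of -0.34 to 0.82 for number, 0.00 to 0.89 for density, -0.25 to 0.54 for covered length and -0.48 to 2.34 for start score. The cause of these changes was not tested. Of 170 values of single members under other settings, 105 stayed within 1.5 times the main value and 65 did not. Narrower windows and score limits can only lower a count or covered length, so this split depends on the settings chosen. Depth is unknown, so weak intervals may be missing.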

Other observations

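Across the 17492 listed promoters, 57.7% of those with the Tead core motif and 66.7% of those without it were marked at a start, and the median scores of marked ones were 2384 and 2809. The share with the motif was 17.6% in promoters with a CpG ratio up to 0.2 and 8.87% in those over 0.8, whereas 6 of the 7 members with a match had ratios from 0.707 to 1.23. Among genes of the same decile of length, a setting added after the data were seen, the density of intervals placed Amotl2 at percentile 98.7, Tead1 at 98.2, Tead3 at 97.6 and Tead4 at 95.0, and Wwtr1 at 62.8, Lats2 at 52.3 and Ankrd1 at 30.7.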
